A study of Mus musculus with 36 samples.

Results

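The genes described here are 40 mouse genes whose products carry a cell through mitosis, from entry to the final cut between daughter cells. They were taken by symbol, and each was read from the array feature annotated with that symbol and no other; where a gene had several such features, the feature with the highest mean over all 36 arrays was used. A value was found for 36 of the 40 genes, among 18820 genes with a feature of their own. Ccnb1 is not listed with any feature, and Ube2c, Kif20a and Nusap1 are listed only on features that they share with another gene (Tnnc2, Cdc23 and Oip5, respectively), so these 4 were not tested.

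The arrays hold RNA from the Ly-6G-negative fraction of bronchoalveolar lavage cells, a preparation rich in pulmonary macrophages, from male C57Bl/6N mice. Scnn1b-Tg mice carry a transgene, active in club cells of the airways, for the beta chain of the sodium channel ENaC; excess channel dehydrates the airway surface. WT mice are their littermates. Lavage was taken at postnatal day (PND) 0, 3, 10 and 42 from mice in specific pathogen free (SPF) housing, and at PND 42 also from germ-free (GF) mice. Each genotype had 3 arrays of newborns, 4 for every later age in SPF housing and 3 of GF adults; each array up to PND 10 holds RNA from the pooled macrophages of 3 pups of 1 genotype, and each PND 42 array a single mouse. Ly-6G selection depletes neutrophils, though some can be left, and lymphocytes, dendritic cells and epithelial cells can remain in the fraction. The transgene is driven by a club cell promoter, and whether macrophages of the fraction carry its RNA was not tested.

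Alveolar macrophages arise around birth from fetal monocytes and then maintain themselves in the lung by dividing in place. In any dividing cell, cyclin B with Cdk1 starts mitosis, condensins and topoisomerase shape the chromosomes, kinetochores and kinesins attach and move them, the spindle checkpoint delays separation until all are attached, and the cytokinesis machinery of Ect2, Racgap1, Kif23 and anillin closes the cell. Most of these genes are transcribed only late in the cell cycle. Their promoters are held silent in resting cells by the DREAM complex and switched on in G2 by the MuvB, B-Myb and FoxM1 proteins, which act through a short element called the cell cycle genes homology region (CHR), and by NF-Y, which binds CCAAT boxes.

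RefSeq promoter windows of 300 bases (250 before and 50 after the start, GRCm38.p6) were at hand for 35 of the 40 genes, in 37 windows; there was none for Aurkb, Ccna2, Incenp, Kif20a and Tpx2. The CHR letters TTTGAA or TTCGAA, searched on both strands, stood in 29 of the 37 windows (78.4%), against 19.2% of the 32851 windows of all genes. CCAAT on either strand stood in 27 windows (73%), against 37.4% of all windows, and both motifs stood together in 25 windows (67.6%), against 7.52%. E2F letters (TTTCGCGC, TTTGGCGC or TTTCCCGC on either strand) stood in 2 member windows (5.41%) and 1.84% of all windows. Matches of different motifs shared a base in 1 place in these windows, TTCGAA reads the same on both strands, and a match is a description of the letters and not a shown binding site. Windows are printed for 6 genes that the results turn on: Ccnb2 and Cdc20 have both motifs, Ndc80 rose most after birth, and Kif11, Ect2 and Anln were lower in Scnn1b-Tg macrophages. Capitals mark the CHR and CCAAT letters, and each sequence runs 5′ to 3′ on the strand of its gene.
Ccnb2, chr9:70421505-70421804 (minus strand): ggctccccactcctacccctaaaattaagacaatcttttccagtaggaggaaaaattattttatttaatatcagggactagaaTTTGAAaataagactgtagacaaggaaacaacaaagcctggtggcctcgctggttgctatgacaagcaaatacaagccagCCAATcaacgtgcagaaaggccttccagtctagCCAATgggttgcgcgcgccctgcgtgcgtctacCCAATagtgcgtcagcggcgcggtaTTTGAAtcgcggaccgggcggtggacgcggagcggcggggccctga
Cdc20, chr4:118437294-118437593 (minus strand): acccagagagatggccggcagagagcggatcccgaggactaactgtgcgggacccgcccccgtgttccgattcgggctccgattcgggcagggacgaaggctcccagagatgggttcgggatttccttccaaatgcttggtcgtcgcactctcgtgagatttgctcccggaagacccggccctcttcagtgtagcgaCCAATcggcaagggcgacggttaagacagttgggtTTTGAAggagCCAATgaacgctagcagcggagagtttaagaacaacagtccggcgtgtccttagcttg
Ndc80, chr17:71526808-71527107 (minus strand): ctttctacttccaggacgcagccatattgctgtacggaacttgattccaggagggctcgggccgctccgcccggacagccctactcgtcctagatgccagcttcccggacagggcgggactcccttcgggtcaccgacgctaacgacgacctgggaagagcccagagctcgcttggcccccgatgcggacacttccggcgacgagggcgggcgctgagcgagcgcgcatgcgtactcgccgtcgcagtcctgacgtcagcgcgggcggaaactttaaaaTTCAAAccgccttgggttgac
Kif11, chr19:37376132-37376431 (plus strand): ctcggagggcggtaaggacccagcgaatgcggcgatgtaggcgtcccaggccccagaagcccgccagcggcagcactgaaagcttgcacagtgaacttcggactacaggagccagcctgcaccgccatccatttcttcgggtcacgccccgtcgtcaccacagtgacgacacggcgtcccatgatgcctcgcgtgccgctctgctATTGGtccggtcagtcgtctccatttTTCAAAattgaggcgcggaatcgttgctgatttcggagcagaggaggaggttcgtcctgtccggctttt
Ect2, chr3:27153829-27154128 (minus strand): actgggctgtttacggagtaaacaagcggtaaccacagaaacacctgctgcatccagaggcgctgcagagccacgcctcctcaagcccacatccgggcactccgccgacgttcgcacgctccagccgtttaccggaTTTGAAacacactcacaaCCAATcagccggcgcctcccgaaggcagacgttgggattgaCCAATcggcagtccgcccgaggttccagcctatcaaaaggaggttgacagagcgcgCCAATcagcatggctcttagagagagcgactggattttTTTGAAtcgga
Anln, chr9:22389157-22389456 (minus strand): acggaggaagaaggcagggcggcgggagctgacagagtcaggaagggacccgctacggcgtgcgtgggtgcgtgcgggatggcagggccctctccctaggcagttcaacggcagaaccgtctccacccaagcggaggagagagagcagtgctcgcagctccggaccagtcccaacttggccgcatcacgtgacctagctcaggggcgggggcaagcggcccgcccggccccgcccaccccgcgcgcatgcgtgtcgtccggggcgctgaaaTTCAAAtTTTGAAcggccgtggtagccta
The Ccnb2 window holds 3 CCAAT boxes and 2 CHR matches, 1 of which begins at base 5, counting the start as 1. The Anln and Ndc80 windows hold CHR letters just after the start and no CCAAT.

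Values are log2 expression as deposited, on which a difference of 1 is a 2-fold change. Groups were compared with limma over all 28940 analysed features, and a gene is said to rise or fall where its adjusted p was under 0.05. Array medians lay between 3.93 and 4.06 at PND 0 and between 3.72 and 3.85 on the later arrays. Replicate arrays correlated between 0.957 and 0.9927. The library labelled Scnn1b-Tg PND 0 replicate 3 read 5.47 for Scnn1b, inside the WT range of that age (4.06 to 6.69). Replicates 1 and 2 read 10.23 and 10.33. PND 0 results are therefore also given without replicate 3, alone and together with the WT array of the same number. That WT array was left out only for its number, which does not pair it with the Scnn1b-Tg library. At PND 3 Scnn1b lay between 5.37 and 6.03 in Scnn1b-Tg and between 3.09 and 3.55 in WT. Markers of epithelium averaged 4.99 to 5.21 and 5.04 to 5.48 on those arrays, and the source of the Scnn1b RNA was not tested. The genotypes overlapped in Scnn1b at PND 10 and in SPF adults. The 16 markers of airway and alveolar epithelium averaged 8.09 to 8.97 on the PND 0 arrays and 4.79 to 5.48 on all later arrays. The alveolar macrophage markers were high on every array, with means from 8.40 at PND 0 to 10.42 at PND 42.

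The mitosis genes rose steeply between PND 0 and PND 3. In WT macrophages all 36 rose, by a median of 1.77 on the log2 scale and by 2.26-fold (Bub1b) to 8.35-fold (Ndc80), and on all 36 the PND 3 arrays lay wholly above the PND 0 arrays. In Scnn1b-Tg macrophages all 36 rose as well, by a median of 1.44 and by 1.79-fold (Cdk1) to 5.98-fold (Bub1), again without overlap. Among all features, 14.0% rose in WT and 16.0% in Scnn1b-Tg, and the median change of all features was 0 and 0.04. PND 3 arrays lay wholly above PND 0 arrays for 15.1% of all features in WT and 17.8% in Scnn1b-Tg. Without the PND 0 arrays of replicate 3, all 36 still rose in both genotypes, with medians of 1.89 and 1.46. With Scnn1b-Tg replicate 3 alone left out, all 36 rose in Scnn1b-Tg as well.

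**Figure D1:**
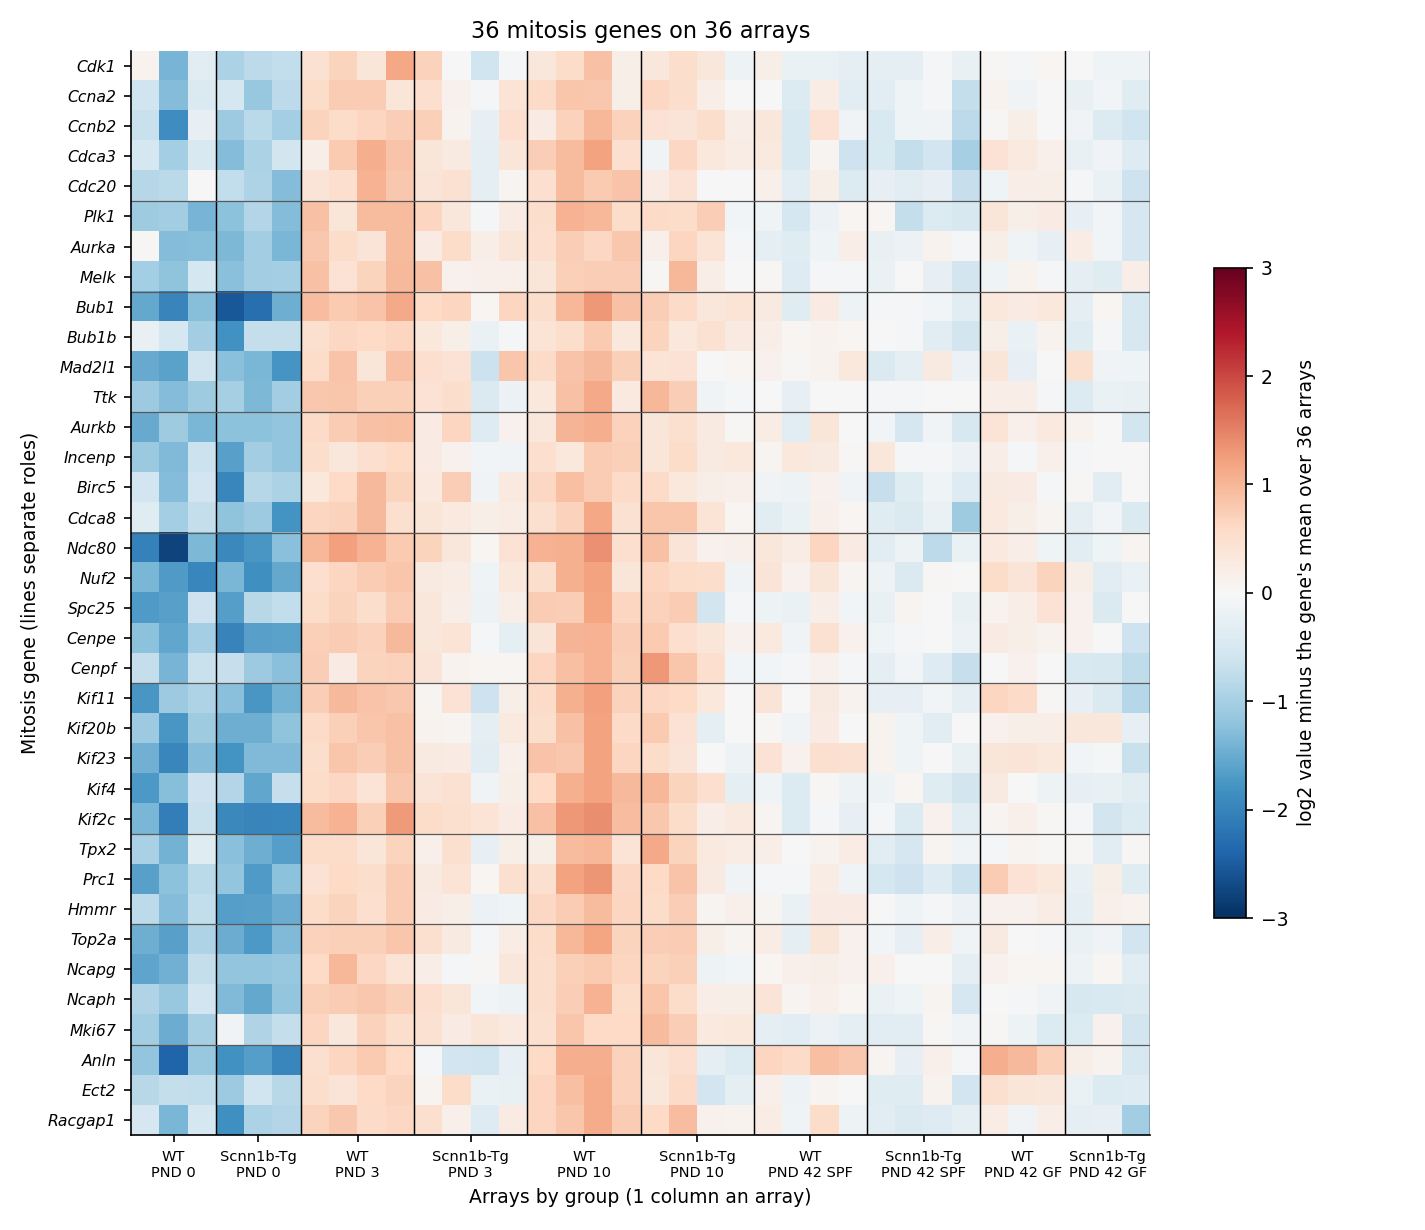
Each row is 1 of the 36 measured mitosis genes and each column 1 of the 36 arrays; colour is the log2 value minus that gene's mean over all arrays. Nearly every gene is lowest at PND 0, highest at PND 3 and PND 10 and intermediate at PND 42, and the WT columns are a stronger red than most Scnn1b-Tg columns beside them at PND 3 and PND 10.

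By role, the median rise in WT ran from 1.39 for the cyclin-CDK and APC/C genes to 2.06 for the kinetochore genes and 2.09 for the kinesins; differences between roles were not tested. Ndc80, the subunit through which the kinetochore grips microtubules, read 4.05, 3.29 and 4.73 on the WT arrays at PND 0 and 7.07, 7.29, 7.12 and 6.85 at PND 3. The 2 ages were separated by more than 2 log2 units, and the rise was 3.06 (SE 0.24, limma adjusted p = 3.07e-11). In Scnn1b-Tg, Ndc80 went from 4.14, 4.31 and 4.81 to 6.73, 6.41, 6.12 and 6.49, a rise of 2.02 (SE 0.24, limma adjusted p = 7.91e-08). Bub1, a kinase of the spindle checkpoint, rose by 2.51 in WT and by 2.58 in Scnn1b-Tg. Kif2c, the kinesin that removes wrongly attached microtubules, rose by 2.37 and 2.38. Nuf2, the partner of Ndc80, rose by 2.36 in WT and 1.75 in Scnn1b-Tg. At PND 0 the Ndc80, Kif2c and Nuf2 values lay within 1 log2 unit of the array medians, some of them below. Their newborn levels are thus close to that of a feature of median brightness, and their folds and rank among the members rest on those dim values. The same limit holds for Bub1 in Scnn1b-Tg, which ran from 3.93 to 5.0 at PND 0 where the array medians were 4.03 to 4.06.

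Among the entry genes and proliferation markers, the rises were as follows. Cdk1, the kinase that drives entry, rose by 1.19 (SE 0.25) in WT and by 0.84 (SE 0.25) in Scnn1b-Tg, and its cyclin Ccnb2 by 1.58 and 1.24. Cdk1 was also spread widely among the newborn WT arrays, at 6.85, 5.35 and 6.43, against 7.20, 7.41, 7.10 and 7.90 at PND 3. Top2a, which untangles replicated chromosomes, rose by 2.07 and 1.73. Mki67, whose product coats mitotic chromosomes and is the usual marker of dividing cells, read 6.97, 6.53 and 7.02 at PND 0 and 8.65, 8.36, 8.71 and 8.55 at PND 3 in WT. In Scnn1b-Tg it read 7.90, 7.11 and 7.31 and then 8.47, 8.25, 8.38 and 8.31. The newborn Scnn1b-Tg arrays thus started higher, and Mki67 rose by 1.73 (SE 0.17) in WT and by 0.91 (SE 0.17) in Scnn1b-Tg.

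Whether the rise differed between genotypes was tested as an interaction across the 4 groups. No member passed (limma, 0 of 36; 9 had an unadjusted p under 0.05; 3.27% of all features passed in either direction), and the median difference between the rises was -0.33, with a smaller rise in Scnn1b-Tg for 29 of the 36. The largest differences were Ndc80, at -1.05 (95% interval -1.75 to -0.35, limma adjusted p = 0.0952), and Mki67, at -0.82 (95% interval -1.32 to -0.31, limma adjusted p = 0.0645). Without the PND 0 arrays of replicate 3 in both genotypes 3 members passed, Ndc80 (-1.20), Mki67 (-0.97) and Ncapg. Without WT PND 0 replicate 3 alone 4 passed, these 3 and Kif23, and without Scnn1b-Tg PND 0 replicate 2 alone 1 passed (Mki67, -0.98). With Scnn1b-Tg PND 0 replicate 3 alone left out, 0 members passed.

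Other genes of cell division, listed by process, moved in the same step. Of 62 further mitosis genes measured, 58 rose in WT and 53 rose and 1 fell in Scnn1b-Tg, with medians of 1.5 and 1.1; Fbxo5, an inhibitor of the anaphase-promoting complex, rose by 2.92 and 2.12. Of 43 DNA replication genes, 42 rose in WT and 35 in Scnn1b-Tg, with medians of 1.18 and 0.97; Rrm2, which makes deoxynucleotides, rose by 3.04 and 1.88. Of 15 cell cycle transcription factors, 9 rose in WT, led by the pocket protein Rbl1 (2.01) and E2f8 (1.79), and 4 rose and 1 fell in Scnn1b-Tg. Over all features 12.0% fell in WT and 14.0% in Scnn1b-Tg in this step. Of 8 G1 cyclins and kinases, 3 rose and 1 fell in WT and 2 rose and 3 fell in Scnn1b-Tg; the fall was led by Ccnd1, by 2.89 and 3.33. Of 12 CDK inhibitors and quiescence genes, 5 rose and 2 fell in WT and 5 rose and 3 fell in Scnn1b-Tg, and Cdkn1c, a brake on G1 kinases, fell by 2.09 and 3.30. Among 12 genes of macrophage growth control, 5 rose and 1 fell in WT and 8 rose and 1 fell in Scnn1b-Tg; the receptor Csf1r rose by 1.53 and 1.98.

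Markers of other cells changed in the same step. Of the 16 epithelial markers, 15 fell in WT and 16 in Scnn1b-Tg, with medians of -3.64 and -3.45. Of the 11 fibroblast markers, 8 fell in WT and 11 in Scnn1b-Tg, where they averaged 5.04 to 7.99 at PND 0 against 3.30 to 3.38 at PND 3. The 12 skeletal muscle markers averaged 5.93 to 7.03 on the Scnn1b-Tg PND 0 arrays and 3.49 to 3.83 on the WT ones. Of the 16 alveolar macrophage markers, 9 rose and 3 fell in WT, with a median of 0.30, and 8 rose and 3 fell in Scnn1b-Tg, with a median of 0.53. The median rise of the mitosis genes was larger than that of the macrophage markers in both genotypes, but the lists differ in brightness. On the PND 0 arrays the mitosis genes averaged 5.0 to 5.6 and the macrophage markers 8.4 to 9.4. The part of brightness in the difference between the medians was not tested. A gain of mitotic RNA in macrophages and a loss of epithelial and other RNA from the fraction between PND 0 and PND 3 cannot be told apart here, and in a bulk sample fewer dividing cells and less mitotic RNA per cell cannot be told apart either.

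**Figure D2:**
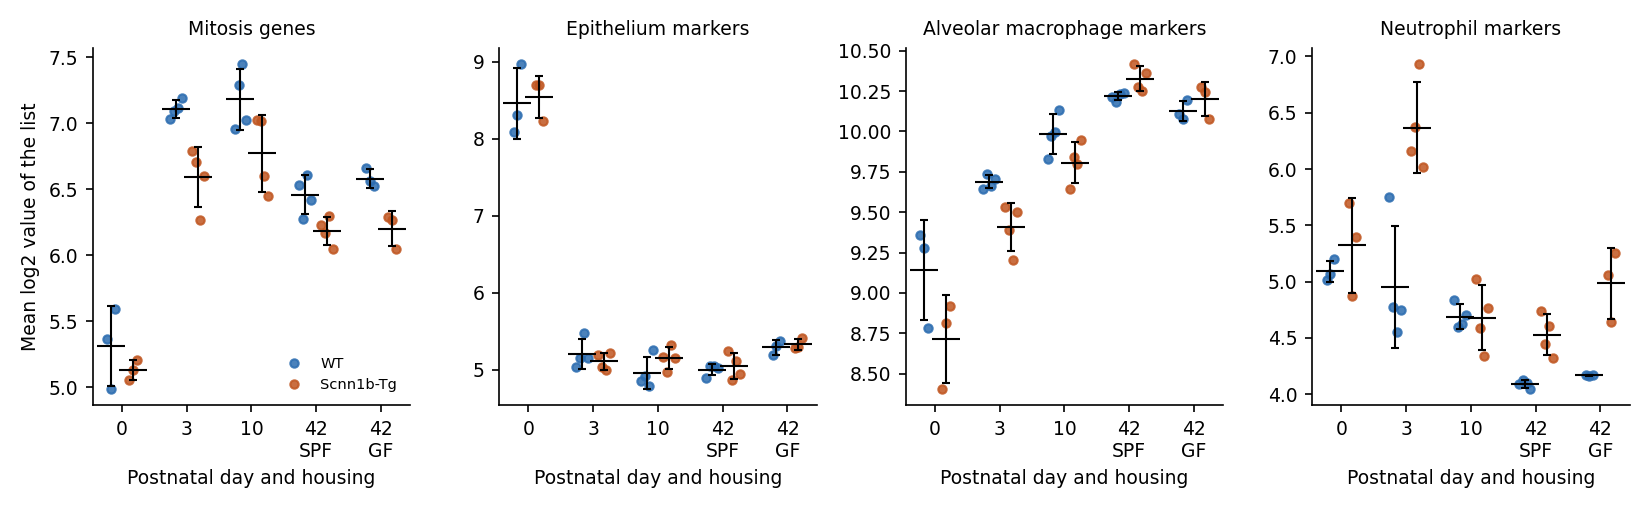
Points are arrays, and the bars are the group mean and SD, of the mean log2 value of the 36 mitosis genes and of 3 marker lists by age, housing and genotype. The mitosis genes are lowest at PND 0, where the epithelium markers are at 8.09 to 8.97, and the neutrophil markers of the Scnn1b-Tg arrays are highest at PND 3.

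Between PND 3 and PND 10 the mitosis genes stayed high. No member passed in WT (limma, 0 of 36; none had an unadjusted p under 0.05; 0.131% of all features passed) or in Scnn1b-Tg (limma, 0 of 36; 4 had an unadjusted p under 0.05; 1.45% of all features passed). The median change was 0.07 in WT and 0.17 in Scnn1b-Tg. In WT the changes ran from -0.18 for Cdk1 (95% interval -0.66 to 0.30) to 0.36 for Kif4, a chromosome-bound kinesin (95% interval -0.09 to 0.82). In Scnn1b-Tg the largest was Cenpf, a protein of the outer kinetochore, at 0.49 (95% interval 0.09 to 0.89), and it passed without Scnn1b-Tg PND 10 replicate 4, at 0.73. The highest group mean in SPF housing was at PND 10 for 27 of the 36 genes and at PND 3 for the other 9 in WT, and at PND 10 for 32 and at PND 3 for 4 in Scnn1b-Tg. None peaked at PND 0 or PND 42.

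By PND 42 the levels were lower again, though above those of newborns. From PND 10 to PND 42 in SPF housing 21 of 36 members fell in WT, where 1.19% of all features fell, and 12 of 36 fell in Scnn1b-Tg, where 2.03% of all features fell. None rose. The median change was -0.73 in WT and -0.59 in Scnn1b-Tg, against 0.01 and -0.02 over all features. The PND 42 arrays lay wholly below the PND 10 arrays for 26 members in WT and 20 in Scnn1b-Tg, against 4.06% and 4.84% of all features. Of these calls 3 in WT and 1 in Scnn1b-Tg were falls of 2-fold or more. The median difference of PND 42 from PND 0 was 1.05 in WT and 1.04 in Scnn1b-Tg. The adult arrays lay wholly above the newborn arrays for 31 and 33 of the 36 genes, against 16.6% and 19.9% of all features. These are differences of group means without a limma test. They use the PND 0 arrays with high epithelial markers, so the limit stated for the step to PND 3 holds here too.

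Kif2c fell most in WT. Its PND 10 arrays read 6.27, 6.69, 6.80 and 6.31 and its PND 42 arrays 5.47, 4.99, 5.34 and 5.14. The ages did not overlap, and the fall was 1.28 (SE 0.19, limma adjusted p = 9.63e-05). Kif4 fell by 1.13 and Cdca3, which helps to destroy the mitosis inhibitor Wee1, by 1.02. Plk1, the kinase that matures the spindle poles, fell by 0.97 and Bub1 by 0.93. In Scnn1b-Tg the largest falls were in Cdca8, the borealin subunit of the chromosomal passenger complex, by 1.04, in Cenpf by 0.99 and in Prc1, which bundles the central spindle, by 0.95. Mki67 fell in both genotypes, by 0.88 (SE 0.16) in WT and 0.74 (SE 0.16) in Scnn1b-Tg. By role, 4 of 5 kinesins, all 3 entry and spindle kinases and 3 of 4 passenger complex genes fell in WT. So did 3 of 5 cyclin-CDK and APC/C genes and 2 of 5 kinetochore genes. In Scnn1b-Tg 0, 1, 2, 2 and 1 of them fell, in the same order. The counts were equal in both genotypes for the spindle microtubule proteins (2 of 3), chromosome structure (2 of 4), the checkpoint (1 of 4) and cytokinesis (1 of 3). Over all features 1.19% fell in WT and 2.03% in Scnn1b-Tg. The kinesin counts rest on the threshold. All 5 kinesins were negative in Scnn1b-Tg, with a median of -0.61 against -0.75 in WT. Kif4 (-0.73, limma adjusted p = 0.0533) and Kif2c (-0.63, limma adjusted p = 0.0541) narrowly missed it in Scnn1b-Tg.

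Anln did not follow the others. Anillin, its product, anchors the contractile ring that divides the cell. In WT it read 7.98, 8.46, 8.47 and 8.06 at PND 10 and 8.03, 7.95, 8.27 and 8.19 at PND 42, a difference of -0.14 (95% interval -0.58 to 0.31, limma adjusted p = 0.946). In Scnn1b-Tg the difference was -0.06 (95% interval -0.51 to 0.38, limma adjusted p = 0.954). Its adult mean was above its newborn mean by 2.30 in WT and by 1.79 in Scnn1b-Tg, under the same limit of the PND 0 arrays. Ndc80 stood above its dim newborn level by 2.41 in WT, and its fall from PND 10 to PND 42 in WT, -0.63, missed the threshold (limma adjusted p = 0.18).

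The count of falls rested in part on single libraries. In WT it was 9 without PND 10 replicate 3, 11 without PND 10 replicate 2, 11 without PND 42 SPF replicate 2 and 13 without PND 42 SPF replicate 4. In Scnn1b-Tg it was 6 without PND 10 replicate 1 and 7 without PND 42 SPF replicate 4. All 36 differences were negative in both genotypes with all arrays. No member passed the test of a genotype difference in the fall (limma, 0 of 36; 1 had an unadjusted p under 0.05; 0.639% of all features passed); the largest value was Kif2c, at 0.65 (95% interval 0.10 to 1.21). Of the 62 further mitosis genes 23 fell in WT and 16 in Scnn1b-Tg, of the 43 DNA replication genes 5 and 1, and E2f8 fell by 0.98 and 0.86. In this step 1.19% of all features fell in WT and 2.03% in Scnn1b-Tg. The single DNA replication call in Scnn1b-Tg is near that share. Neutrophil markers averaged 4.59 to 4.84 at PND 10 and 4.05 to 4.13 at PND 42 in WT, and the alveolar macrophage markers 9.83 to 10.14 and 10.19 to 10.24; their part in the fall was not tested.

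**Figure D3:**
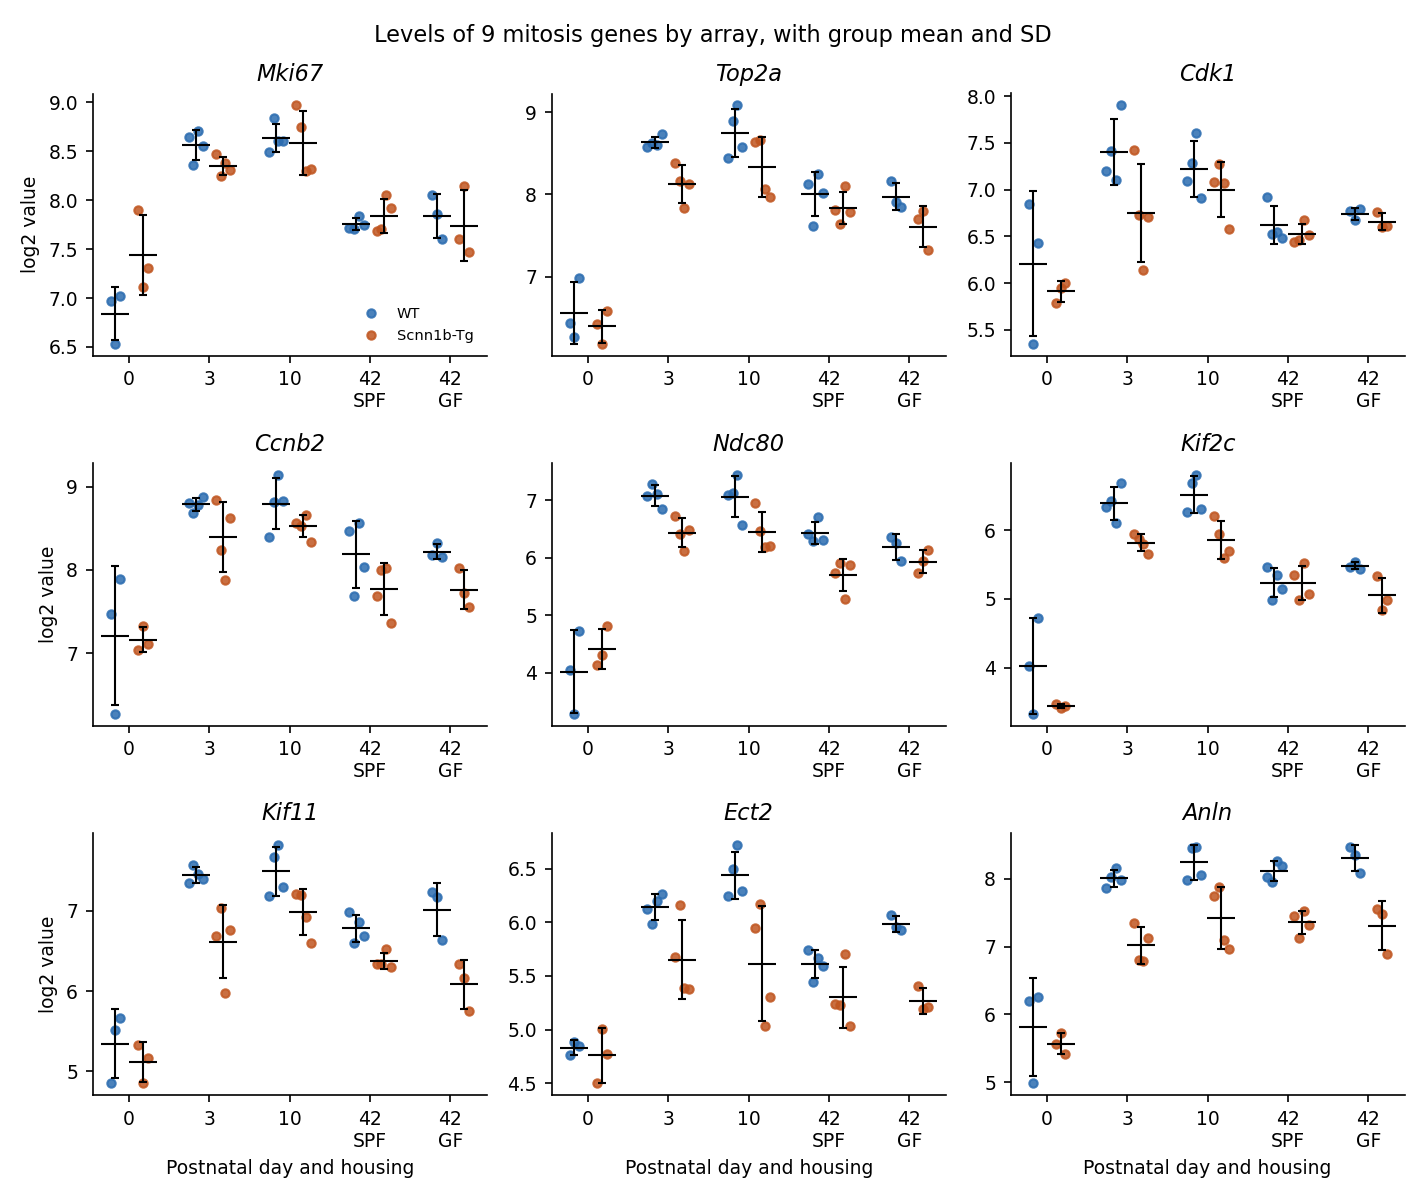
Each panel is a gene; points are arrays (blue WT, orange Scnn1b-Tg) on the log2 scale, and the black marks are the group mean and SD, by postnatal day and housing. Anln keeps its PND 10 level at PND 42 and is lower in Scnn1b-Tg from PND 3 on, whereas the Mki67 values of the genotypes overlap from PND 3 on.

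From PND 3 on the mitosis genes tended to be lower in Scnn1b-Tg than in WT macrophages. At PND 3 all 36 differences were negative, with a median of -0.51 against 0 over all features, and 8 genes fell below WT: Anln, Kif11, Kif20b, Cenpe, Kif23, Aurkb, Hmmr and Ncaph. No member was higher. Over all features 1.87% were called lower, and 26 members had an unadjusted p under 0.05. The Scnn1b-Tg arrays lay wholly below the WT arrays for 19 members, against 5.92% of all features.

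Anln was the member with the largest difference at PND 3. WT arrays read 7.86, 8.03, 8.16 and 7.98, and Scnn1b-Tg arrays 7.35, 6.80, 6.79 and 7.13. The groups did not overlap, and the level was 1.99-fold lower in Scnn1b-Tg (log2 difference -0.99, SE 0.22, limma adjusted p = 0.00489). Kif11, the kinesin that pushes the spindle poles apart, read 7.34, 7.57, 7.46 and 7.40 in WT and 6.68, 7.04, 5.98 and 6.76 in Scnn1b-Tg, 1.77-fold lower (limma adjusted p = 0.0104). Kif20b and Kif23, kinesins of the central spindle, were 1.63-fold and 1.58-fold lower. Cenpe, the kinetochore kinesin that carries chromosomes to the spindle equator, was 1.61-fold lower. Aurkb, the kinase of the passenger complex, was 1.55-fold lower; Hmmr, a spindle pole protein, and Ncaph, a condensin subunit, were each 1.5-fold lower. Their adjusted p ran up to 0.0458 (Aurkb).

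Several entry genes and usual proliferation markers missed the threshold at PND 3. Top2a differed by -0.51 (limma adjusted p = 0.118), Cdk1 by -0.65 (limma adjusted p = 0.14), Plk1 by -0.49 (limma adjusted p = 0.176) and Ccnb2 by -0.39 (limma adjusted p = 0.558). Cdk1 was spread from 6.14 to 7.42 over the Scnn1b-Tg arrays. Mki67 had the smallest difference of the 36 members, -0.22 (95% interval -0.55 to 0.11, limma adjusted p = 0.678).

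The library Scnn1b-Tg PND 3 replicate 3 was the lowest of its group for 28 of the 36 genes, and its mean over the members was 6.27 against 6.6 to 6.79 on the other 3 arrays. The same library had the highest neutrophil marker mean of its group, 6.93 against 6.01 to 6.37, and the lowest alveolar macrophage marker mean, 9.20 against 9.39 to 9.53. Without it only 1 member, Anln, still passed, and the median difference was -0.40. The count was 4 without WT replicate 2, 4 without WT replicate 4, 5 without WT replicate 3 and 5 without Scnn1b-Tg replicate 4. Over the whole groups the 18 neutrophil markers averaged 6.01 to 6.93 in Scnn1b-Tg and 4.55 to 5.75 in WT, with 6 called higher and none lower; 4 of 10 monocyte markers were higher and 1 lower, and 5 of 16 alveolar macrophage markers were lower and none higher. Of all 28940 features 629 were called higher and 542 lower at PND 3. The part of these cells in the difference was not tested.

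At PND 10 all 36 differences were again negative, with a median of -0.39 against 0.01 over all features, and 3 members passed, where 0.435% of all features were called lower. Ect2, the exchange factor that switches on the contractile ring, read 6.24, 6.5, 6.72 and 6.29 in WT and 5.95, 6.17, 5.03 and 5.30 in Scnn1b-Tg. The groups did not overlap, although the Scnn1b-Tg arrays split into a higher and a lower pair, and the difference was -0.82 (SE 0.19, limma adjusted p = 0.0133). Anln differed by -0.82 as well (SE 0.22, limma adjusted p = 0.0469) and Kif23 by -0.68 (SE 0.17, limma adjusted p = 0.0277). All 3 act in cytokinesis, although Kif23 is counted with the kinesins in the counts by role. Racgap1 acts there too and did not pass (-0.40, limma adjusted p = 0.555). Differences between roles were not tested. Kif2c, which acts on microtubule attachment, differed by -0.66 (limma adjusted p = 0.0852). Kif11 differed by -0.51 (limma adjusted p = 0.272), Top2a by -0.41 (limma adjusted p = 0.348) and Mki67 by -0.05 (95% interval -0.38 to 0.28, limma adjusted p = 0.965). No member passed without WT replicate 2, without WT replicate 3, without Scnn1b-Tg replicate 3 or without Scnn1b-Tg replicate 4. The alveolar macrophage markers averaged 9.83 to 10.14 in WT and 9.64 to 9.95 in Scnn1b-Tg, and the neutrophil markers 4.59 to 4.84 and 4.34 to 5.03; 3 macrophage markers were lower and none higher. Their part was not tested.

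The members varied together from pup pool to pup pool. Of the WT PND 10 arrays, replicate 3 was the highest for 30 of the 36 genes and replicate 1 the lowest for 24. Of the Scnn1b-Tg PND 10 arrays, replicates 1 and 2 were the highest for 18 and 16 genes and replicate 4 the lowest for 22. The median SD of the members within a group was 0.27 and 0.33 at PND 10 in WT and Scnn1b-Tg, against 0.15 and 0.17 over all features. At PND 3 in WT it was 0.15 against 0.14.

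At PND 42 in SPF housing 33 of 36 differences were negative, with a median of -0.30 against -0.02 over all features. Anln alone passed, where 1.77% of all features were called lower, so a single call among 36 is near that share. An unadjusted p under 0.05 was found for 10 members, against 3997 of 28940 features. Anln read 8.03, 7.95, 8.27 and 8.19 in WT and 7.45, 7.13, 7.53 and 7.32 in Scnn1b-Tg. The gap had no overlap, and the difference was -0.75 (SE 0.22, limma adjusted p = 0.0415). Without any 1 of the 8 arrays the call of Anln was lost, with differences between -0.67 and -0.81. Ndc80 did not overlap between genotypes and differed by nearly as much (-0.73, limma adjusted p = 0.0596). Kif23 (-0.43, limma adjusted p = 0.187) and Kif11 (-0.41, limma adjusted p = 0.356) did not overlap between genotypes and missed the threshold, and Ect2 overlapped (-0.31, limma adjusted p = 0.531). Mki67 differed by 0.08 (95% interval -0.25 to 0.42, limma adjusted p = 0.945).

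The Scnn1b-Tg arrays lay wholly below the WT arrays for 9 members in SPF housing and 19 in GF housing, against 5.64% and 12.1% of all features.

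In GF housing 35 of 36 differences were negative, with a median of -0.37 against -0.02 over all features, and 3 members passed, where 1.77% of all features were called lower. Anln read 8.47, 8.35 and 8.09 in WT and 7.56, 7.48 and 6.89 in Scnn1b-Tg, a difference of -0.99 (SE 0.25, limma adjusted p = 0.0148). Kif11 read 7.23, 7.17 and 6.63 in WT and 6.34, 6.16 and 5.75 in Scnn1b-Tg, a difference of -0.93 (SE 0.23, limma adjusted p = 0.0117). Ect2 differed by -0.72 (SE 0.21, limma adjusted p = 0.0466), and all 3 genes were without overlap. Kif23 differed by -0.63 (limma adjusted p = 0.0545) and Mki67 by -0.10 (95% interval -0.48 to 0.28, limma adjusted p = 0.934). The Kif11 gene has 2 features of its own, and with their mean the difference was -0.48 and no longer passed. No member passed without WT GF replicate 1, without WT GF replicate 2 or without Scnn1b-Tg GF replicate 3, and the call of Ect2 was lost without any 1 of the 6 arrays.

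**Figure D4:**
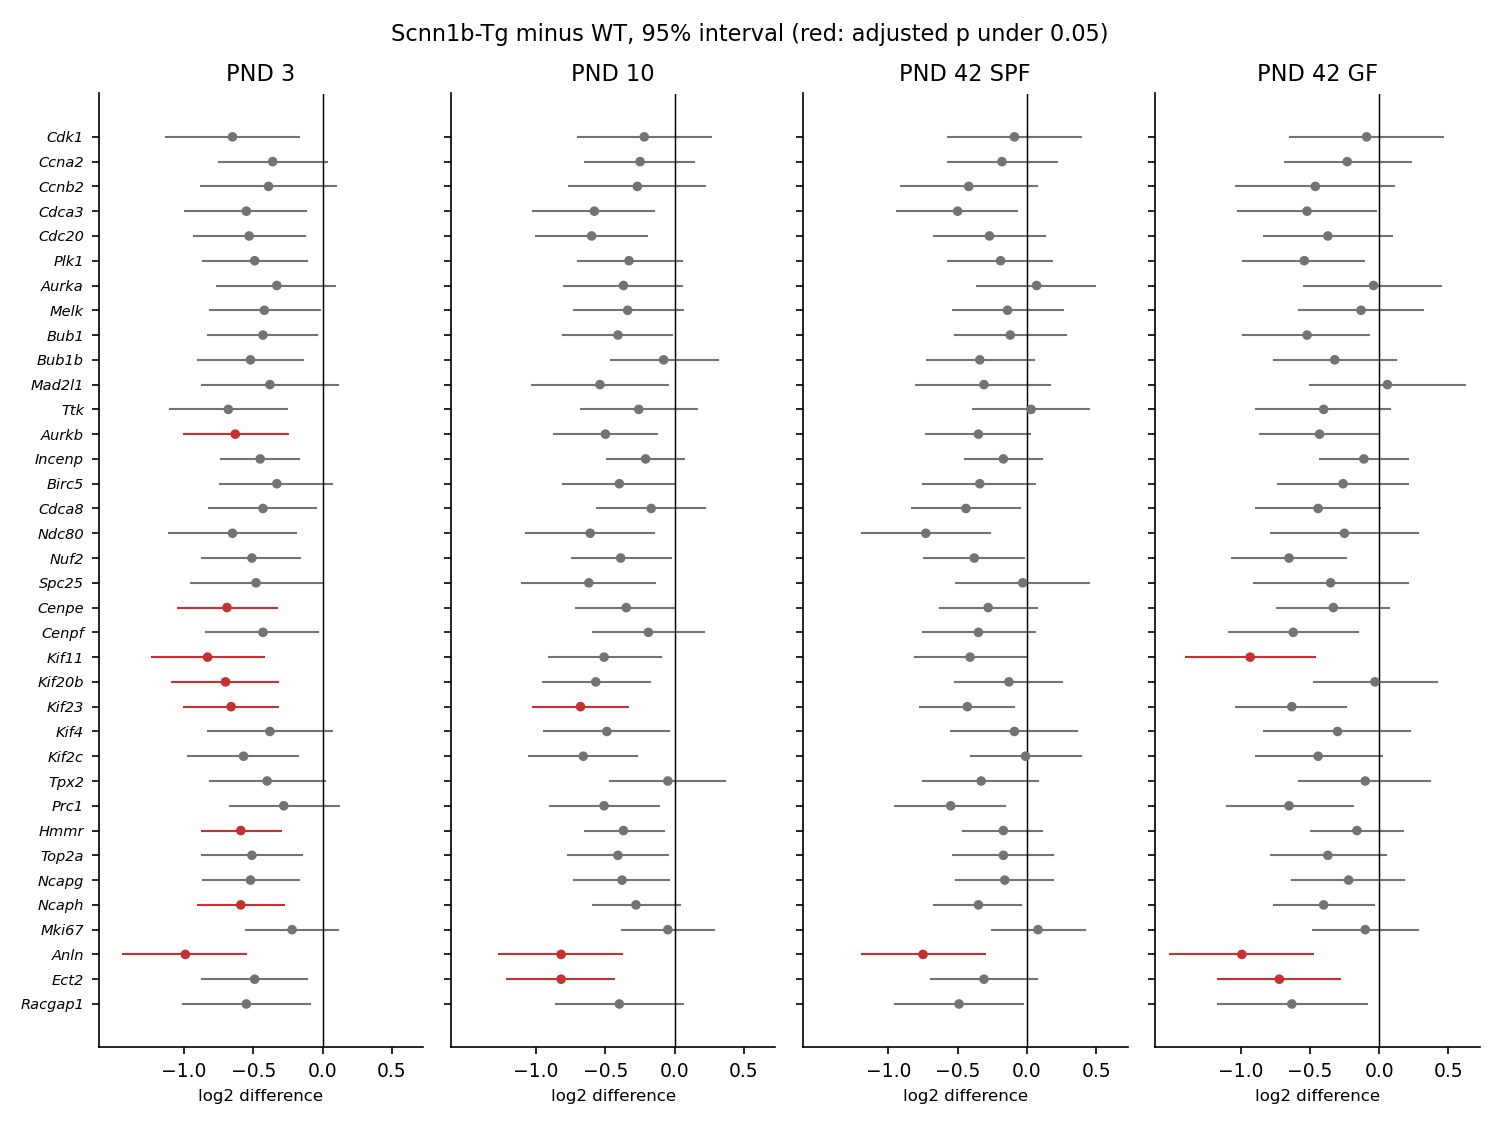
For each of the 36 genes the point is the log2 difference of Scnn1b-Tg from WT and the line its 95% interval, for pups of PND 3 and PND 10 and for SPF and GF adults; red marks an adjusted p under 0.05. Almost all points lie left of 0, Anln is red in all 4 panels, and Mki67 stays near 0.

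Over the 4 comparisons from PND 3 on, which share no arrays, 32 of the 36 members were lower in Scnn1b-Tg each time. The members varied together within arrays, so these are not 32 separate observations, and the share over all features was not computed. The exceptions were Mki67, Ttk, Mad2l1 and Aurka, each above 0 in 1 comparison. Averaged over the 4, the difference was -0.89 for Anln, -0.67 for Kif11, -0.60 for Kif23 and -0.58 for Ect2, and it was nearest to 0 for Mki67, at -0.07. Markers of other cells differed between the adult genotypes too. The 9 dendritic cell markers averaged 4.29 to 4.75 in Scnn1b-Tg and 3.98 to 4.11 in WT in SPF housing, with 5 called higher, and 4.38 to 5.14 and 3.79 to 4.07 in GF housing, with 3 called higher. The neutrophil markers averaged 4.32 to 4.74 and 4.05 to 4.13 in SPF housing, with 2 called higher and 1 lower, and 4.64 to 5.26 and 4.16 to 4.17 in GF housing, with 4 called higher and 1 lower. The 15 T and NK lymphocyte markers averaged 4.33 to 4.85 in Scnn1b-Tg and 3.84 to 4.24 in WT in SPF housing, with 2 called higher, and 4.55 to 5.24 and 3.74 to 4.02 in GF housing, with 6 called higher and none lower in either housing. The alveolar macrophage markers averaged 10.25 to 10.42 in Scnn1b-Tg and 10.19 to 10.24 in WT in SPF housing and overlapped in GF housing. Their part in the lower mitosis values was not tested.

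At PND 0, with 3 arrays of each genotype, 1 member passed. Hmmr fell below WT by 0.65 (SE 0.16, limma adjusted p = 0.0176), and the other 35 members did not pass. Over all features 1.59% were called lower, so the single call is near that share. Of the 36 differences 26 were negative, with a median of -0.20. An unadjusted p under 0.05 was found for 9 members, against 4895 of 28940 features. The Scnn1b-Tg arrays lay wholly below the WT arrays for 4 members and wholly above for 1, against 6.69% and 4.21% of all features. Cdca8 differed by -0.66, without overlap, and missed the threshold (limma adjusted p = 0.0865). Hmmr read 5.50, 4.98 and 5.56 in WT and 4.63, 4.65 and 4.81 in Scnn1b-Tg, without overlap. It no longer passed without WT replicate 1 (-0.57), WT replicate 3 (-0.54) or Scnn1b-Tg replicate 1 (-0.61). Mki67 was higher in Scnn1b-Tg by 0.60, without overlap, and missed the threshold (95% interval 0.22 to 0.98, limma adjusted p = 0.0632); it passed without WT replicate 3 (0.69) or without Scnn1b-Tg replicate 2 (0.76). Without the replicate 3 arrays of both genotypes 2 members passed, 1 higher (Mki67, 0.75) and 1 lower (Bub1b), and the median was -0.05. With Scnn1b-Tg replicate 3 alone left out 2 passed, Hmmr and Bub1. With WT replicate 3 alone left out 2 passed, Bub1b and Mki67. Markers of skeletal muscle (11 of 12), fibroblasts (9 of 11), erythroid cells (5 of 11) and mast cells (3 of 8) were higher in the Scnn1b-Tg fraction at this age. Of all 28940 features 792 were called higher. Of the 16 alveolar macrophage markers 4 were called lower, and all 16 differences were negative. The part of these markers in the mitosis values was not tested.

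Whether the genotype difference itself changed with age was tested as well. No member passed for PND 10 against PND 3 (limma, 0 of 36; none had an unadjusted p under 0.05; 0.0553% of all features passed). None passed for PND 42 in SPF housing against PND 3 (limma, 0 of 36; 4 had an unadjusted p under 0.05; 1.23% of all features passed), where the median change was 0.27 and the largest was Ttk, a checkpoint kinase, at 0.71 (95% interval 0.11 to 1.30).

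No member passed for housing. GF minus SPF housing at PND 42 gave a median of 0.12 in WT (limma, 0 of 36 passed; 2 had an unadjusted p under 0.05; 0.0657% of all features passed) and of -0.01 in Scnn1b-Tg (limma, 0 of 36 passed; none had an unadjusted p under 0.05; 0.142% of all features passed). Values ran from -0.24 for Ndc80 to 0.50 for Prc1 (95% interval 0.07 to 0.92) in WT and from -0.29 for Kif11 to 0.45 for Cdca3 (95% interval -0.02 to 0.92) in Scnn1b-Tg. The genotype difference in GF minus that in SPF housing had a median of -0.09, with no member past the threshold (limma, 0 of 36; none had an unadjusted p under 0.05; 0.00346% of all features passed). Kif11 had the largest, -0.52 (95% interval -1.14 to 0.10).

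Genes of other cell division processes were also compared between genotypes. Of the 62 further mitosis genes 13 were lower in Scnn1b-Tg at PND 3, 4 at PND 10, 4 in SPF adults and 2 in GF adults, and none was higher; the medians were -0.51, -0.36, -0.21 and -0.28. Pimreg was lower by 0.87 and 1.00 in the pups of either age and by 0.86 in SPF adults, and Fbxo5 by 0.73 and 0.75 at PND 42 in SPF and GF housing. Of the 43 DNA replication genes 10, 4, 2 and 1 were lower, with medians of -0.37, -0.32, -0.20 and -0.15 and none higher. Over all features the shares called lower were 1.87%, 0.435%, 1.77% and 1.77% in the same order, and in GF adults the counts of both lists are close to that share. Mcm10, which starts the replication fork, was lower by 0.77 at PND 3 and 0.76 at PND 10, and Mcm4 by 0.57 at PND 42 in SPF housing.

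Among the 15 cell cycle transcription factors, 2 were lower at PND 3 and 2 at PND 10; in adults, 1 was lower and 1 higher under SPF conditions and 2 were lower under GF conditions. E2f8, a repressor that is made in S phase, was lower in Scnn1b-Tg by 0.93, 0.83, 0.71 and 0.72 in that order, and Rbl1 by 0.53 and 0.66 in pups and 0.70 in GF adults. Of the 12 CDK inhibitors and quiescence genes, 1 was higher at PND 3 (Btg1, 0.52), 1 lower at PND 10 (Cdkn2c, -0.95), 1 higher and 1 lower in SPF adults, and 2 higher and 1 lower in GF adults. For scale, 629 of all 28940 features were higher and 542 lower at PND 3, against 327 and 126 at PND 10. Among SPF adults the counts were 787 higher and 512 lower, and among GF adults 910 and 512. Whether calls in these lists of 12 to 15 genes exceed those shares was not tested. Btg2, an antiproliferative gene, was lower in adults by 1.00 and 0.90. The CDK inhibitor Cdkn2a was higher in Scnn1b-Tg at PND 42, by 0.52 in SPF and 0.77 in GF housing, and Cdkn1a by 0.68 in GF housing. Csf1, the main macrophage growth factor, was higher in Scnn1b-Tg by 2.74 at PND 3, by 3.21 in SPF adults and by 3.60 in GF adults. At PND 10 none of the 12 macrophage growth control genes, Csf1 among them, was called higher, and their highest difference was 1.07. Pparg, a factor that alveolar macrophages need to mature, was lower by 0.72 in newborns, by 0.88 at PND 3 and by 0.55 at PND 10. Foxm1 was not measured by a feature of its own.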

How the data were processed

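Per the labels, RNA of Ly-6G-negative lavage cells was amplified to cDNA and hybridised to the Mouse Gene 1.0 ST array of Affymetrix. The authors deposited log2 values made in Partek (version 6.5 in the processing notes, 6.6 in the methods) by probe sequence adjustment, RMA background correction, quantile normalisation and median polish. Depth does not apply to arrays, and the number of arrays limits the precision. Of 35556 features, 6616 presumed control features were left out and 28940 analysed; GEO's platform annotation gives 21218 of these 1 gene, 1881 several and 5841 none. Here limma (version 3.58.1, R 4.3.3) fitted 1 mean for each of 10 groups over all 36 arrays, with Benjamini-Hochberg adjustment over all analysed features in each of 18 comparisons. It was tested on simulated data. Alternatives were other scalings, filters, weights, a replicate block and leaving out single arrays; background correction from scanner files was not run. Named genes were Mki67, Top2a, Cdk1 and 9 more set members, the 8 largest changes past the threshold, members that went against the rest and up to 4 genes of each other list. Some genes that did not pass were chosen after their values were seen. These were uncalled extremes and Ndc80, Kif11, Kif23, Ect2, Racgap1, Kif2c, Kif4 and Cdca8. The members and gene lists were chosen with earlier results of these data known. Replicate numbers do not pair the samples. Nothing in the sources used here says whether pools of 1 group came from separate litters, and p-values measure only the spread between these arrays.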

Additional observations from a re-analysis of the deposited data

Results flagged for a closer look

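In 222 groups of 4 arrays (each of the 36 genes, and their mean), 12 held an array that lay far from the other 3 by Dixon's criterion, which chance alone gives in about 1 group of 20. In WT at PND 3, replicate 2 was low for Plk1 (6.99, others 7.51 to 7.59) and for Cenpf (5.44, others 5.87 to 5.93). In WT at PND 10, replicate 1 was low for Melk (5.90, others 6.24 to 6.28). In WT at PND 42 in SPF housing, replicate 1 was high for Cdk1 (6.92, others 6.48 to 6.55), and replicate 3 was high for Birc5 (6.61, others 6.32 to 6.37) and Cenpf (5.34, others 5.13 to 5.16). In the same group replicate 2 was low for Ttk (4.65, others 4.90 to 4.92) and Kif23 (7.23, others 7.53 to 7.59). In Scnn1b-Tg at PND 3, replicate 1 was high for Melk (6.41, others 5.67 to 5.69) and Cenpf (5.58, others 5.25 to 5.30), and replicate 3 was low for Bub1 (6.53, others 7.07 to 7.12). In Scnn1b-Tg at PND 42 in SPF housing, replicate 4 was low for Cdc20 (5.04, others 5.42 to 5.48).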

How the results depend on the processing

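Counts of members that passed moved by over 1.5 times in these cases. With only the compared groups fitted, the count was 0 at PND 0, 0 at PND 10 and 5 at PND 42 in SPF housing (genotype comparisons). With weights by group variance it was 0 at PND 0, 15 at PND 3, 3 in SPF and 6 in GF housing. Without moderation, with all features kept and with quantile normalisation repeated it was 0 in SPF housing, and the last gave 2 at PND 0. Median centring gave 2 in SPF housing and moved the median of all features from PND 0 to PND 3 by 0.24 in both genotypes. Without dim features the counts were 2 at PND 0, 2 in SPF and 5 in GF housing, 19 for the fall after PND 10 in Scnn1b-Tg and 1 for the genotype difference in the PND 3 rise. With PND 0 replicate 3 of both genotypes left out, an alternative chosen after seeing the data, these were 2 at PND 0 and 3 for the rise. The replicate block gave 0 in SPF housing, ended the calls of Aurkb at PND 3 and Anln at PND 10 and that of Kif11 in the WT fall, and moved no other count by over 1.5 times; same-numbered arrays of different groups correlated at a median of -0.00879, with 1 of 150 pairs over 0.1.

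Leaving out 1 array gave 0 to 3 members at PND 0, 1 to 10 at PND 3, 0 to 4 at PND 10, 0 in SPF and 0 to 4 in GF housing. It gave 9 to 22 falls in WT, 6 to 17 in Scnn1b-Tg, 36 rises in WT, 35 to 36 in Scnn1b-Tg, 0 to 1 changes from PND 3 to PND 10 in Scnn1b-Tg and 0 to 4 genotype differences in the rise; the other counts stayed at 0. Values that changed sign were Mki67 between genotypes at PND 10 (-0.18 to 0.04) and in GF housing (-0.30 to 0.04), Anln from PND 10 to PND 42 in Scnn1b-Tg (-0.21 to 0.09) and, with the mean of its features, Kif11 from SPF to GF housing in Scnn1b-Tg (0.01). Of single-gene values, 1399 kept direction and side of the threshold under other settings, 52 lost the call, 19 gained it and 1 changed sign; with an array left out these were 1026, 141, 8 and 8. The causes were not tested.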

Other observations

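The features that 3 of the unmeasured genes share with another gene could not be given to either gene, and their levels are listed here as values. The feature of Nusap1, which bundles spindle microtubules, and Oip5 had means of 5.65, 7.46, 7.63 and 6.75 in WT at PND 0, 3, 10 and 42 in SPF housing and 6.90 in GF housing. In Scnn1b-Tg it had means of 6.89, 6.98, 7.21, 6.38 and 6.6, and its PND 0 arrays ranged from 5.17 to 8.31. The feature of Ube2c, the ubiquitin carrier of the anaphase-promoting complex, and Tnnc2, a troponin of fast skeletal muscle, had means of 7.06, 7.73, 7.85, 7.18 and 7.40 in WT and of 8.16, 7.53, 7.59, 6.95 and 7.13 in Scnn1b-Tg. Its Scnn1b-Tg PND 0 arrays ranged from 7.04 to 8.94. The feature of Kif20a, a kinesin of cytokinesis, and Cdc23, a subunit of the anaphase-promoting complex, had means of 6.32, 6.99, 6.94, 6.88 and 7.0 in WT and of 6.31, 6.65, 6.61, 6.56 and 6.59 in Scnn1b-Tg.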
